A study of Mus musculus with 10 samples.

Results

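Expression of 40 listed genes that write or erase histone methylation, or that encode Polycomb subunits, was followed across 10 Affymetrix mouse arrays of cultured leukemia stem cell lines. The genes were chosen by name, with earlier results of these data known. Where a gene had several probe sets, the one brightest on average over the 10 arrays stood for it. Of the 40, 39 had a probe set assigned to that gene alone, out of 18194 genes on the array. Ash1l had none and was not analysed here. All 39 entered the tests, since each exceeded the median of the array on 2 arrays or more, and 38 of them did so on all 10. The exception was Kdm5b, which lay above the median on 8 arrays.

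The arrays fall into 4 groups. One holds RH-RAS lines 1 and 3, which were transformed by R882H-mutant DNMT3A together with NRAS carrying G12D, after 4 days of exposure to SGC0946 at 1 µM, an inhibitor of the histone methyltransferase Dot1l (2 arrays). The second holds 3 lines transformed by the fusion gene NUP98-JARID1A, and the third a single MLL-AF9 line with no replicate. The last holds 4 untreated RH-RAS lines, numbered 1 to 4, which the labels call independently derived. All lines grew in Opti-MEM with serum and stem cell factor. The sources used here do not say whether a line is a clone, which vehicle the untreated cultures received or when the arrays were scanned. Each value is 1 array of 1 culture, so the number of arrays limits the precision.

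Histone methyltransferases place methyl groups on lysines or arginines of the histone tails, and demethylases of the Kdm families take them off. Methylation of H3K4 is written by SET domain enzymes that work with a shared core of Wdr5, Rbbp5, Ash2l and Dpy30, known as COMPASS, and it marks active promoters and enhancers. Polycomb repressive complex 2, with the catalytic subunit Ezh2 or Ezh1, writes H3K27 methylation, while Polycomb repressive complex 1 carries the ubiquitin ligases Ring1 and Rnf2 and a partner such as Bmi1. Both complexes silence developmental genes, and Bmi1 and Ezh2 are known for sustaining blood stem and progenitor cells. Dot1l, the target of SGC0946, methylates H3 within the body of transcribed genes. JARID1A is another name of the H3K4 demethylase Kdm5a, whose PHD finger is joined to the nucleoporin NUP98 in the fusion, and MLL is the H3K4 methyltransferase Kmt2a, joined in its fusion to AF9.

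The labelled cell state was checked on 7 stem and progenitor markers (Kit, Cd34, Flt3, Meis1, Hoxa9, Myb and Ptprc). None lay below the array median on every array, and their mean log2 intensity was 10.53 to 10.59 on the SGC0946 arrays, 11.47 to 11.78 in NUP98-JARID1A lines, 11.28 in the MLL-AF9 line and 11.61 to 11.82 in untreated RH-RAS lines. Ptprc, the brightest of them on the SGC0946 arrays (12.95 and 13.05), raised the mean there. Monocyte and macrophage markers averaged more on these arrays, 11.23 to 11.34, and late neutrophil markers averaged 10.00 to 13.07 in NUP98-JARID1A lines. Markers of B cells (Cd79a, Ebf1), red cells (Hba-a1) and fibroblasts (Col1a1, Col1a2, Dcn) lay below the array median on all 10 arrays. Of the other measured markers of these cells, Epor lay above it on 9 arrays, Klf1 on 6, Pdgfrb on 4 and Pax5 on 2. Untreated line 4 stood apart from the other untreated lines. Its 7 monocyte and macrophage markers averaged 8.71, against 7.00 to 7.15 in lines 1 to 3, and its 6 T and NK cell markers averaged 6.53, against 7.95 to 8.06. Among the 39 histone methylation genes, line 4 was the lowest of the 4 untreated lines for 19 and the highest for 10.

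**Figure D1:**
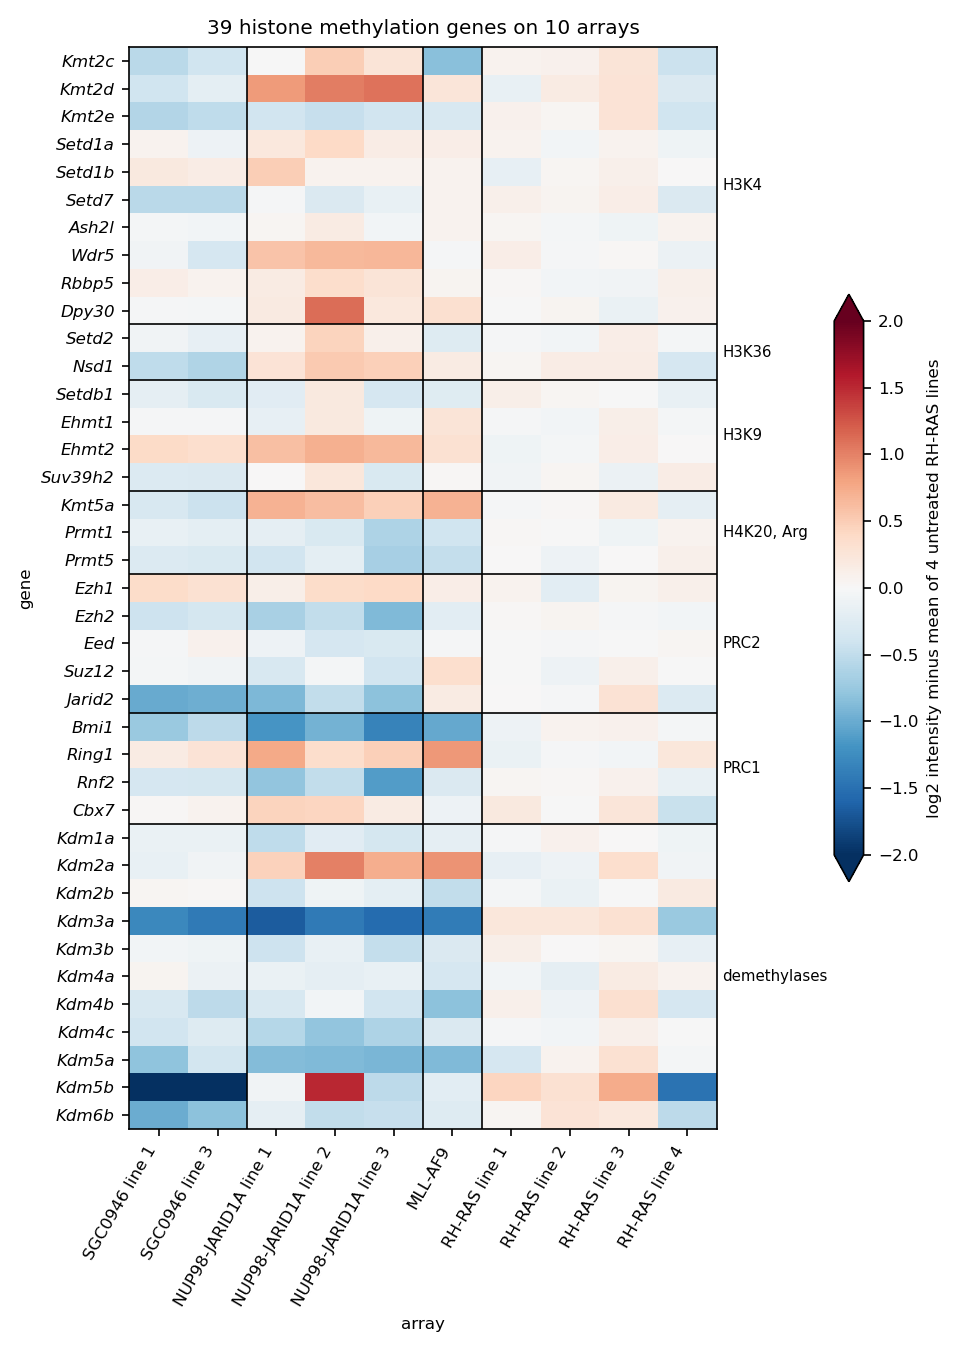
Log2 intensity of the 39 genes on each array, minus the mean of the 4 untreated RH-RAS arrays (colour, red higher and blue lower); rows are genes grouped by role and columns are arrays grouped by condition. Kdm5b and Kdm3a are dark blue on both SGC0946 arrays, Kdm3a and Bmi1 are blue on all NUP98-JARID1A arrays and on the MLL-AF9 array, and line 4 is blue for Kdm5b and Kdm3a among the untreated lines.

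The first comparison asks how inhibition of Dot1l moved the other histone methylation genes in RH-RAS lines 1 and 3. Under SGC0946, 8 of the 39 genes were lower than in the same untreated lines (20.5%; limma adjusted p under 0.05 over all 11993 genes tested) and none was higher. Of all genes tested, 12% changed, 6.84% higher and 5.12% lower. At an unadjusted limma p under 0.05, 16 of the 39 changed, as did 3211 of the 11993 genes tested. The median log2 change of the 39 was −0.19, against 0.02 for all genes tested, and 79.5% of them lay below zero, against 46.8% of all genes. The list was chosen with earlier results of these data known, which limits these comparisons with all genes. Both lines moved the same way for 34 genes (28 lower, 6 higher), a count that was not made over all genes. By role, the lower genes were 4 of 11 demethylases, 2 of 10 H3K4 writers and COMPASS core genes, 1 of 5 genes of Polycomb repressive complex 2 and 1 of 4 of complex 1. No H3K9 writer (0 of 4), no H3K36 writer (0 of 2) and no writer of H4K20 or arginine methylation (0 of 3) passed in limma, and at an unadjusted p under 0.05 each of these 3 roles had 1.

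The genes that fell most under SGC0946 were Kdm5b, Kdm3a and Jarid2, and their promoters are printed here for that reason alone. The windows run from 250 bases before to 50 bases after a listed start, in RefSeq for GRCm38.p6, and are written 5′ to 3′ on the gene's strand. Capitals mark letters that match a CCAAT box (CCAAT), a GC box (GGGCGG) or the core of the hypoxia response element (ACGTG or GCGTG) on either strand. Kdm5b lies at chr1:134559928-134560227 on the + strand, Kdm3a at chr6:71632868-71633167 on the - strand (the first of 3 listed starts) and Jarid2 at chr13:44730524-44730823 on the + strand (the first of 2).
Kdm5b: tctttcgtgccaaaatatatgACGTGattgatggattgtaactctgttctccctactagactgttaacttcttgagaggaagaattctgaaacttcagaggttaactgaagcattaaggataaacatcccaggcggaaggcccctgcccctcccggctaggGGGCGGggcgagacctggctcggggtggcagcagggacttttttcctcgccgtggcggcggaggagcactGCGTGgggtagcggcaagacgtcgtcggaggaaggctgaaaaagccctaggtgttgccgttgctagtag
Kdm3a: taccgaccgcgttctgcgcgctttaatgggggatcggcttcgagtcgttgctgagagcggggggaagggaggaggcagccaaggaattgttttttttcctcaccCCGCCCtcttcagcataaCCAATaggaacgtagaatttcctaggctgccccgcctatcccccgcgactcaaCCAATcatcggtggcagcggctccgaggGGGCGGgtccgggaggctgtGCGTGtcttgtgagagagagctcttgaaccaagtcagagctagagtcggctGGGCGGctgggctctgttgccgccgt
Jarid2: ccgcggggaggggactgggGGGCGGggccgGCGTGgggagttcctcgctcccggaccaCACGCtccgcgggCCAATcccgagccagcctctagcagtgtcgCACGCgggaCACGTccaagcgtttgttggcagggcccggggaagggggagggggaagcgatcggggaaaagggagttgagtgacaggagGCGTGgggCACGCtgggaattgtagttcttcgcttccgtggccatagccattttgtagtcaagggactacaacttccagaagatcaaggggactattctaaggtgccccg

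The Kdm5b window held 17 CpG, 1 GC box and 2 hypoxia response cores, and no CCAAT box. The Kdm3a window held 24 CpG, 3 GC boxes, 2 CCAAT boxes and 1 hypoxia response core. The Jarid2 window held 24 CpG, 6 hypoxia response cores, 1 GC box and 1 CCAAT box. No matches overlapped one another. Of the 39 genes, 30 had a listed promoter, with 43 windows in all. A hypoxia response core was in 69.8% of these windows, against 43.8% of the 32851 promoters of the table, a GC box in 65.1% against 35.7% and a CCAAT box in 41.9% against 37.4%. The median CpG count was 28 in the windows of the histone methylation genes and 7 over all promoters. A match is a run of letters and shows no bound factor.

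Among the demethylases, Kdm5b, which removes methyl groups from H3K4, moved furthest. Its log2 intensity was 5.39 and 5.56 in SGC0946-treated lines 1 and 3, against 8.72 and 9.03 in the same untreated lines. Untreated lines 2 and 4 had 8.58 and 6.82. Both treated values lay below every other array and below the array medians, which were 5.72 to 5.82, and line 4 lay between the treated arrays and the other untreated lines. The log2 change was −3.39 ± 0.73 (SE, n = 2 treated and 2 untreated arrays in this and the following SGC0946 values), a 10.5-fold lower level (limma adjusted p = 0.0265). Adding line as a block, the same change did not pass (limma adjusted p = 0.0516). A second probe set of Kdm5b read 5.23 and 5.25 in treated lines 1 and 3, against 7.81 and 7.60 in the untreated lines (−2.47 ± 0.65, limma adjusted p = 0.0541 over probe sets), and another, dim one differed by −0.96 ± 0.40 (0.188). The mean of all Kdm5b probe sets differed by −1.85 ± 0.48 (0.0458). In bulk RNA a lower level per cell and fewer cells that express the gene cannot be told apart.

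Kdm3a, a demethylase of H3K9, had 9.92 and 9.80 under SGC0946, against 11.43 and 11.51 in untreated lines 1 and 3. Untreated line 2 had 11.44 and line 4 had 10.46. The treated values lay below all 4 untreated values, and line 4 again lay between. The change was −1.61 ± 0.28, or 3.06-fold lower (limma adjusted p = 0.0141). Kdm6b, which removes H3K27 methylation, had 8.46 and 8.64 under SGC0946, against 9.50 and 9.67 in untreated lines 1 and 3. Lines 2 and 4 had 9.73 and 8.94, so the groups did not overlap, and the change was −1.03 ± 0.25, or 2.04-fold lower (limma adjusted p = 0.0382). A second probe set of Kdm6b had 8.96 on both treated arrays, against 10.54 and 10.67 in the untreated lines, a change of −1.65 ± 0.32 (limma adjusted p = 0.0223 over probe sets). Kdm4b, a demethylase of H3K9 and H3K36, had 7.50 and 7.30 under SGC0946, against 7.92 and 8.14 in untreated lines 1 and 3. Line 4, at 7.49, reached the treated range, and the change of −0.63 ± 0.15 (limma adjusted p = 0.0398) was lost when line was added as a block (0.0958).

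The other 7 demethylases did not pass. Kdm5a, the H3K4 demethylase whose part forms the NUP98 fusion, had 9.52 and 9.97 under SGC0946, against 10.00 and 10.64 in untreated lines 1 and 3. Its difference of −0.58 ± 0.22 missed the threshold (limma adjusted p = 0.141) and passed once line was added as a block (0.0381). One dimmer probe set of Kdm5a was lower by itself (−0.53, limma adjusted p = 0.0404 over probe sets), while 2 others were not called (−0.26 ± 0.39 and −0.16 ± 0.41). Kdm1a, which demethylates H3K4 in the CoREST complex, differed by −0.13 ± 0.12 (0.554), with 11.10 and 11.11 under SGC0946, against 11.22 and 11.25. Kdm4c was at −0.36 (0.0819), and Kdm2a, Kdm2b, Kdm3b and Kdm4a lay between −0.19 and 0.05.

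In Polycomb repressive complex 2, Jarid2, which brings the complex to chromatin, fell. It had 10.14 and 10.16 under SGC0946, against 11.15 and 11.43 in untreated lines 1 and 3, and lines 2 and 4 had 11.12 and 10.88. The groups did not overlap, and the change was −1.14 ± 0.17, or 2.21-fold lower (limma adjusted p = 0.00860). A second probe set had 9.55 and 9.40 under SGC0946, against 10.90 and 10.83 (−1.39 ± 0.17, limma adjusted p = 0.00582 over probe sets). The catalytic and core subunits did not pass. Ezh2 had 11.56 and 11.64 under SGC0946, against 12.00 and 11.97 in untreated lines 1 and 3 (−0.38 ± 0.14, limma adjusted p = 0.119). Ezh1 was at 0.28 ± 0.14 (0.270), Eed at 0.04 ± 0.11 (0.873) and Suz12 at −0.11 ± 0.13 (0.675).

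In Polycomb repressive complex 1, Bmi1 had 10.96 and 11.18 under SGC0946, against 11.59 and 11.78 in untreated lines 1 and 3. Untreated lines 2 and 4 had 11.77 and 11.66, so the groups did not overlap. The change of −0.62 ± 0.15, or 1.54-fold, passed narrowly (limma adjusted p = 0.0418) and did not pass once line was added as a block (0.0822) or without untreated line 2 or line 4 (0.0575 each). A second probe set of Bmi1 fell by 0.80 ± 0.10 (limma adjusted p = 0.00652 over probe sets). The ligases Ring1 and Rnf2 differed by 0.31 ± 0.15 (0.250) and −0.40 ± 0.19 (0.225), and the chromodomain gene Cbx7 by −0.17 ± 0.16 (0.569).

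**Figure D2:**
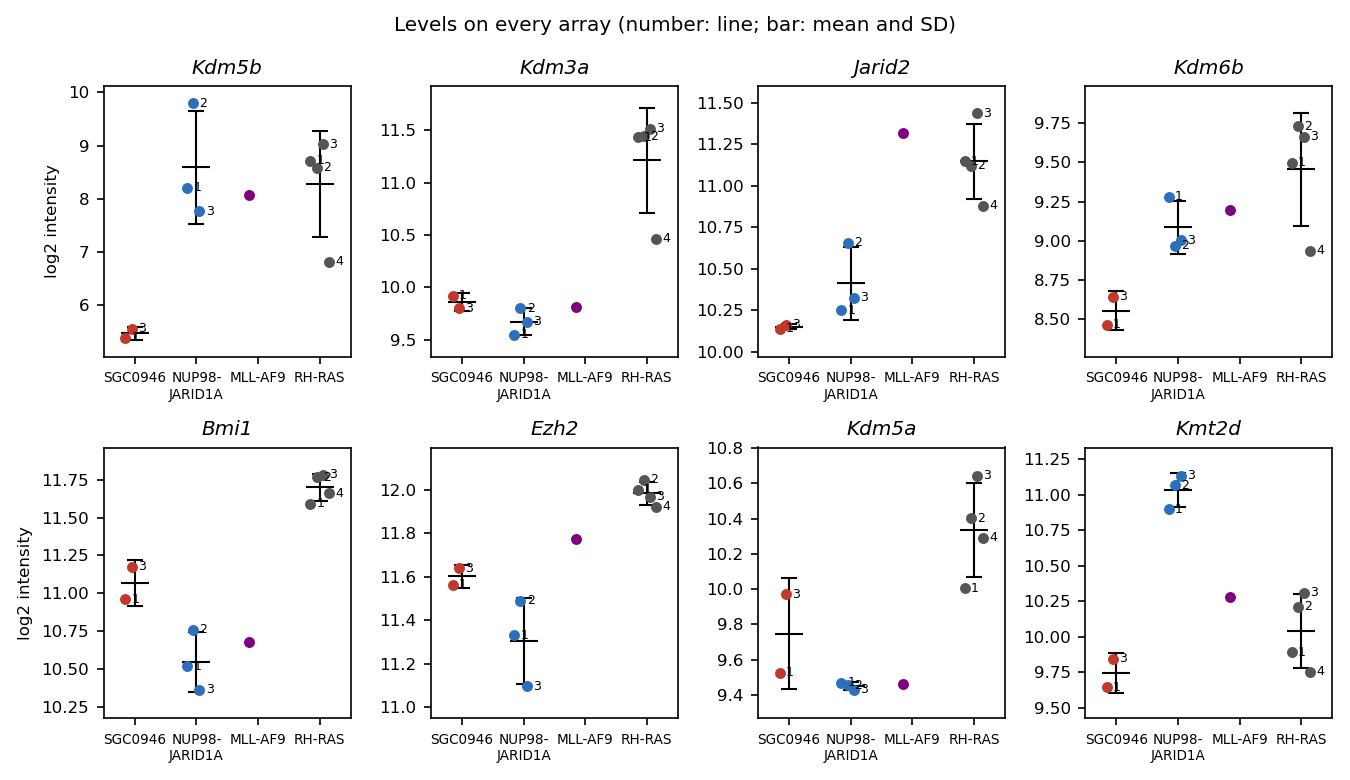
Log2 intensity of 8 genes on every array, by group (points, numbered by line; bars, mean and SD; MLL-AF9 is 1 array), with an axis of its own for each gene. All genes but Kmt2d lie lower on both SGC0946 arrays than in all untreated RH-RAS lines, though Ezh2 and Kdm5a were not called there. Kdm3a, Jarid2, Bmi1, Ezh2 and Kdm5a lie lower in all 3 NUP98-JARID1A lines, and Kmt2d lies higher there.

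Among H3K4 genes, Kmt2e, a SET domain protein of the family of MLL, had 10.92 and 11.00 under SGC0946, against 11.59 and 11.78 in untreated lines 1 and 3. Lines 2 and 4 had 11.54 and 11.10, and the change was −0.73 ± 0.15 (limma adjusted p = 0.0237). The call rests on the brightest probe set. The other 4 tested probe sets of Kmt2e were at −0.49, −0.37, −0.30 and −0.27 and none was called, and the mean of all its probe sets was at −0.35 ± 0.15 (0.165). Setd7, which adds a single methyl group to H3K4, had 10.28 and 10.26 under SGC0946, against 10.91 and 10.95. Lines 2 and 4 had 10.86 and 10.53, and the change was −0.65 ± 0.14 (limma adjusted p = 0.0241), while a dim second probe set of Setd7 was at 0.03 ± 0.15 (0.944 over probe sets) and the mean of both was at −0.31 ± 0.10 (0.0911). For both genes all untreated values lay above the treated ones, with line 4 nearest to them. The core scaffold Wdr5 had 10.62 and 10.35 under SGC0946, against 10.81 and 10.71 (−0.28 ± 0.12, limma adjusted p = 0.172), and Ash2l, Rbbp5 and Dpy30 lay between −0.03 and 0.13. The promoter methyltransferases Setd1a and Setd1b were at −0.09 and 0.20. The enhancer methyltransferases Kmt2c and Kmt2d were at −0.63 ± 0.21 (0.0994) and −0.35 ± 0.20 (0.313).

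The writers of other marks missed the threshold. The H3K36 writers Nsd1 and Setd2 were at −0.64 ± 0.17 (limma adjusted p = 0.0512) and −0.17 ± 0.14 (0.526). Nsd1 had 8.60 and 8.50 under SGC0946, against 9.14 and 9.25 in untreated lines 1 and 3, with 9.26 in line 2 and 8.77 in line 4, so its groups did not overlap. Without the array of untreated line 2, or of line 4, Nsd1 passed, and without NUP98-JARID1A line 1 it passed as well. The H4K20 writer Kmt5a was at −0.45 ± 0.12 (0.0567). The largest positive value was that of Ehmt2, an H3K9 writer, at 0.34 ± 0.10 (0.0808), with 11.04 and 10.99 under SGC0946, against 10.56 and 10.79. The other H3K9 writers Setdb1, Ehmt1 and Suv39h2 lay between −0.29 and −0.07. The arginine writers Prmt1 and Prmt5 were at −0.13 ± 0.15 (0.647) and −0.30 ± 0.16 (0.282).

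**Figure D3:**
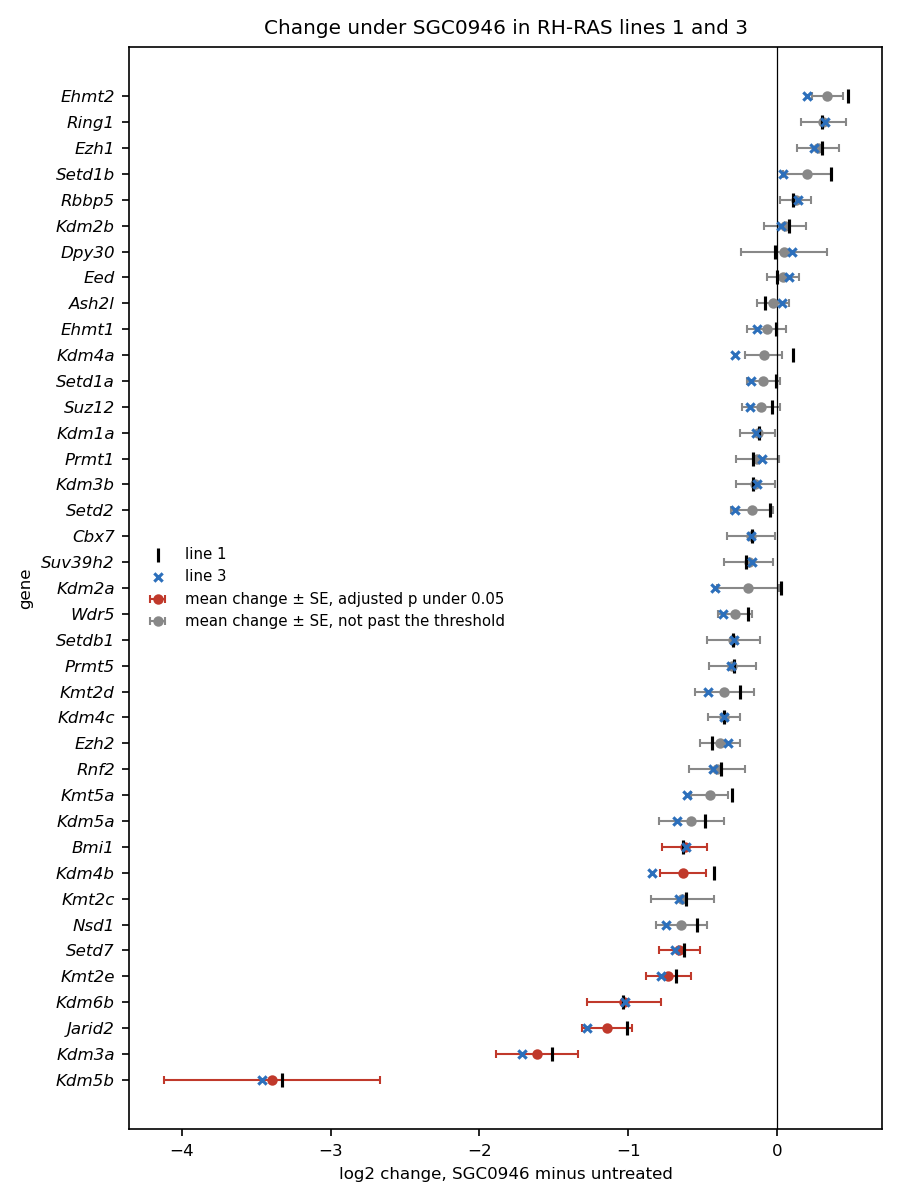
Log2 change under SGC0946 (treated minus untreated) for each of the 39 genes, with the value of line 1, the value of line 3 and their mean ± SE, coloured where the limma adjusted p is under 0.05. The 8 genes past the threshold all lie left of zero, with Kdm5b at −3.39 and the other 7 between −1.61 and −0.62, and the 2 lines lie on opposite sides of zero for 5 genes.

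These calls rest on few arrays. Treated and untreated values also did not overlap for genes far from the threshold, such as Setd1b (limma adjusted p = 0.501), Prmt1 (0.647) and Kdm1a (0.554). Non-overlap under SGC0946 was not counted over all genes. Without the array of treated line 1, treated line 3 or untreated line 3, every call among the 39 was lost. Without untreated line 1, only that of Jarid2 was kept. Each of these fits leaves 1 array on 1 side. The counts over all genes were then 129, 28, 123 and 149. Across these fits Kdm3a was between −1.67 and −1.55 (limma adjusted p = 0.0869 to 0.112) and Kdm5b between −3.55 and −3.24 (0.123 to 0.145). Untreated line 4 enters the spread but not the log2 changes, and without its array 8 of the 39 genes were again called, with Nsd1 in place of Bmi1. Adding line as a block, 6 of the 39 genes were lower and 844 genes in all were called. In a fit of lines 1 and 3 alone 18 of the 39 passed (15 lower, 3 higher), among 3746 genes. All 7 monocyte and macrophage markers were higher on the same treated arrays (mean log2 intensity 11.23 to 11.34, against 7.00 to 8.71 in the 4 untreated lines), 5 of 7 stem and progenitor markers were lower, and 3 of 6 T and NK cell markers were lower (5.76 to 5.79, against 6.53 to 8.06). Of 7 late neutrophil markers 1, Mmp8, was higher. Of 11 proliferation markers 1 was higher and none lower. Their part in the changes of the histone methylation genes was not tested.

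A second list held other histone methylation and Polycomb genes, of which 58 were tested. Under SGC0946, 2 of them were lower and 1 was higher (5.17%, against 12% of all genes tested). The lower ones were both of Polycomb repressive complex 1, Phc1 (−0.81 ± 0.17, limma adjusted p = 0.0241) and Pcgf5 (−0.53 ± 0.10, 0.0193), and the higher one was Phc2 of the same complex (0.45 ± 0.11, 0.0443). Dot1l itself had 8.49 and 8.42 under SGC0946, against 8.24 and 8.55 in untreated lines 1 and 3 (0.06 ± 0.14, 0.843), and Kmt2a differed by −0.17 ± 0.21 (0.683).

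The second comparison sets NUP98-JARID1A lines against untreated RH-RAS lines, as differently transformed lines grown alike. Of the 39 genes 21 differed (53.8%), 9 higher and 12 lower in NUP98-JARID1A lines. This share is near the background, since 51% of all genes tested differed (32.5% higher and 18.5% lower). The median log2 difference of the 39 was −0.12, against 0.10 for all genes. By role, the demethylases had 1 higher and 5 lower of 11, and H3K4 writers and COMPASS core genes had 4 higher and none lower of 10. Polycomb repressive complex 2 had 3 lower of 5, complex 1 had 2 lower and 1 higher of 4, and H4K20 and arginine writers had 1 higher and 2 lower of 3. Of the H3K36 writers 1 of 2 was higher, and of the H3K9 writers 1 of 4.

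Kdm3a showed the largest difference. NUP98-JARID1A lines 1 to 3 had 9.55, 9.80 and 9.67, against 11.43, 11.44, 11.51 and 10.46 in untreated RH-RAS lines 1 to 4. The groups did not overlap, with line 4 the nearest, and the difference was −1.54 ± 0.26 (SE, n = 3 and 4 in this and the following NUP98-JARID1A values), or 2.91-fold lower (limma adjusted p = 0.00210). Kdm5a had 9.47, 9.45 and 9.43 in NUP98-JARID1A lines, against 10.00, 10.40, 10.64 and 10.29 in untreated RH-RAS lines (−0.89 ± 0.14, 1.85-fold lower, limma adjusted p = 0.00185). The NUP98-JARID1A values varied by an SD of 0.02 and lay below all RH-RAS values. Kdm4c, an H3K9 demethylase, was lower (−0.66 ± 0.08, 0.000632), as were Kdm1a (−0.36 ± 0.09, 0.0128) and Kdm3b (−0.35 ± 0.11, 0.0308). Kdm2a, an H3K36 demethylase, was higher, with 9.30, 9.84 and 9.57 in NUP98-JARID1A lines, against 8.67, 8.74, 9.18 and 8.77 (0.73 ± 0.17, 0.00872). Kdm5b had 8.21, 9.80 and 7.77, against 8.72, 8.58, 9.03 and 6.82, and its groups were wide and overlapped, and the difference was not called (0.31 ± 0.65, 0.722). The Kdm5b difference was −0.18 without RH-RAS line 4 and −0.30 without NUP98-JARID1A line 2.

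Of the 9 Polycomb genes 5 were lower in NUP98-JARID1A lines and 1 was higher, while 18.5% of all genes tested were lower and 32.5% higher. Bmi1 had 10.52, 10.76 and 10.36, against 11.59, 11.77, 11.78 and 11.66 in untreated RH-RAS lines. No value overlapped, and the difference was −1.15 ± 0.11, or 2.23-fold lower (limma adjusted p = 0.000195). Rnf2, the ligase partner of Bmi1, had 10.14, 10.43 and 9.81, against 10.98, 10.95, 11.01 and 10.78 (−0.80 ± 0.15, 0.00334). Ring1, the other ligase, was higher instead, with 8.69, 8.29 and 8.41, against 7.80, 7.91, 7.88 and 8.16 (0.53 ± 0.13, 0.0113). In Polycomb repressive complex 2, Ezh2 had 11.33, 11.49 and 11.10, against 12.00, 12.05, 11.97 and 11.92, and its groups did not overlap (−0.68 ± 0.10, 0.00143). Jarid2 (−0.74 ± 0.15, 0.00596) and the core subunit Eed (−0.25 ± 0.08, 0.0359) were lower as well. Ezh1 (0.30 ± 0.11, 0.0626) and Suz12 (−0.25 ± 0.10, 0.0793) did not pass.

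The 4 H3K4 genes that differed were all higher by the probe sets used, while by the mean of all probe sets Setd1a was at −0.27. That mean takes in a probe set that lay below the array median on all 10 arrays. Kmt2d, which methylates H3K4 at enhancers, had 10.90, 11.07 and 11.13 in NUP98-JARID1A lines, against 9.89, 10.21, 10.31 and 9.75 in untreated RH-RAS lines (0.99 ± 0.15, 1.99-fold, limma adjusted p = 0.00137). Wdr5 had 11.26, 11.34 and 11.35, against 10.81, 10.66, 10.71 and 10.56, with no overlap (0.63 ± 0.08, 0.000765). Setd1a and the core subunit Rbbp5 were each higher by 0.26 (0.0455 and 0.0344). Of the other writers, Ehmt2 was higher by 0.66 ± 0.08 (0.000594), Kmt5a by 0.59 ± 0.10 (0.00257) and Nsd1 by 0.42 ± 0.14 (0.0368), while Setd2 was not called (0.21 ± 0.11, 0.156). The arginine writers Prmt5 and Prmt1 were lower, at −0.42 ± 0.12 (0.0231) and −0.37 ± 0.11 (0.0298).

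**Figure D4:**
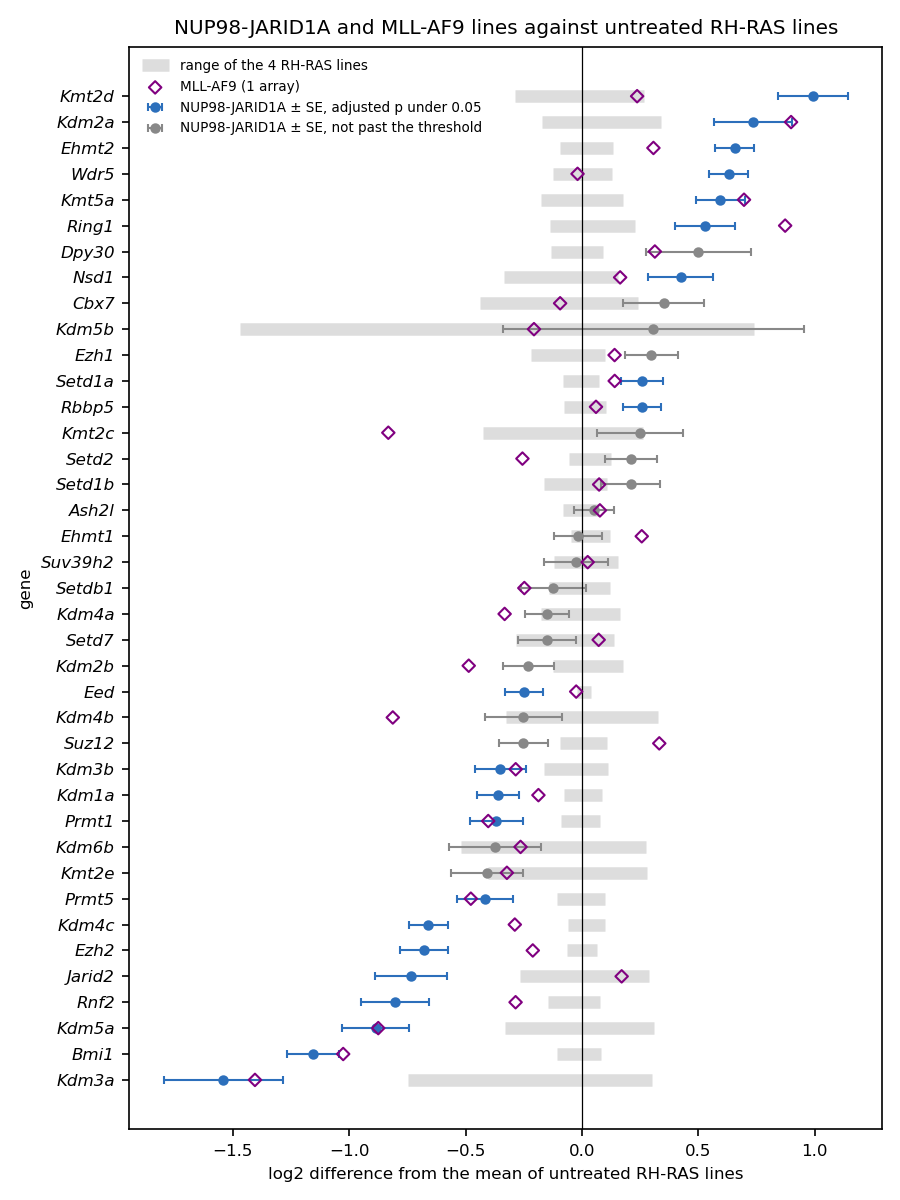
Log2 difference from the mean of the 4 untreated RH-RAS lines for each of the 39 genes: NUP98-JARID1A lines as mean ± SE (n = 3 and 4), coloured where the limma adjusted p is under 0.05, and the single MLL-AF9 array as a diamond, over the range of the RH-RAS lines in grey. Kdm3a and Bmi1 lie at least 1 below zero for both kinds of line, and Kmt2d lies 0.99 above zero for NUP98-JARID1A lines and within the RH-RAS range for MLL-AF9.

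Dpy30 and Ezh1, which were not called, did not overlap between NUP98-JARID1A and RH-RAS lines either, and non-overlap was not counted over all genes. Leaving out each of the 7 arrays in turn, 14 of the 21 calls held in every case (6 higher and 8 lower). Of these 14, Kmt2d, Ehmt2, Kmt5a, Jarid2 and Kdm2a were lost when all probe sets of a gene were averaged. The other 7, Setd1a, Rbbp5, Nsd1, Prmt1, Prmt5, Eed and Kdm3b, were lost at least once. Without RH-RAS line 4, 19 of the 39 genes passed, with Eed, Prmt1, Prmt5 and Setd1a lost and Kdm6b and Kmt2e gained. All 7 late neutrophil markers were higher in NUP98-JARID1A lines (mean log2 intensity 10.00 to 13.07, against 4.77 to 4.94 in untreated RH-RAS lines), 4 of 7 monocyte and macrophage markers were higher and 1 lower (9.22 to 10.30, against 7.00 to 8.71), and 7 of 11 proliferation markers were lower (11.13 to 11.35, against 11.58 to 11.62). Of 6 T and NK cell markers 3 were lower (Gzma at −5.26, Cd3g at −3.67 and Cd7 at −1.78) and Gata3 was higher (1.59). Of 7 stem and progenitor markers Flt3 (−2.07) and Ptprc (−0.37) were lower and Kit was higher (1.68), and of the red cell markers Epor was lower (−0.37). Their part in these differences was not tested.

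For several genes the probe sets of 1 gene disagreed in this comparison. The 39 genes had 102 probe sets, 28 genes had more than 1, and 82 probe sets were tested on their own. Of these 43 differed between NUP98-JARID1A and RH-RAS lines (13 higher, 30 lower), among 52.2% of all probe sets tested (27.4% higher and 24.8% lower). Under SGC0946, 13 of the 82 changed, all lower, among 9.7% of all probe sets (5.17% higher and 4.53% lower). In 4 genes that were called, Ehmt2, Kdm2a, Kmt2d and Kdm3b, probe sets differed in both directions. A dimmer Kmt2d probe set was at −0.62 ± 0.12, a second Ehmt2 probe set at −0.30 ± 0.10, 2 dim Kdm2a probe sets at −0.93 ± 0.23 and −0.78 ± 0.13, and a Kdm3b probe set at 0.57 ± 0.10, each past the threshold. The directions given above for these 4 genes are those of the brightest probe set and do not hold for every probe set. A second Nsd1 probe set was at −0.06 ± 0.15 (limma adjusted p = 0.774). The dimmest tested Kdm5b probe set was at −0.04 ± 0.33 (0.940), against 0.31 for the one used. Under SGC0946, probe sets that were not called also lay on the other side of zero for Kdm3b (0.19, against −0.15), Suz12 (0.15, against −0.11) and Ash2l (0.03, against −0.03).

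When all probe sets of a gene were averaged, 18 genes differed between NUP98-JARID1A and RH-RAS lines, and 13 of them were among the 21. Eed (0.29, limma adjusted p = 0.00643) was called in the opposite direction. Its second probe set lay below the array median on all 10 arrays and was not tested on its own. It read 3.60 to 4.99, against 10.85 to 11.26 for the one used. The 8 calls lost were those of Kmt2d (0.18, 0.0770), Ehmt2 (0.18, 0.0696), Kmt5a (0.24, 0.0864), Jarid2 (−0.38, 0.0645), Kdm2a (−0.25, 0.0535), Kdm3b (0.11, 0.354), Nsd1 (−0.25, 0.129) and Setd1a (−0.27, 0.0533), the last 4 with their sign changed. Kdm2b, Kdm6b, Setdb1, Suv39h2 and Suz12 were gained. For some genes, Setd1a and Kmt5a among them, the mean takes in probe sets that lay below the array median on all 10 arrays. Both tested Kmt5a probe sets were higher by themselves, at 0.59 and 1.32 (limma adjusted p = 0.00264 and 0.000150 over probe sets).

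Kdm5a, the gene in the fusion, was lower still by 2 other probe sets. One had 6.47, 7.31 and 6.39 in NUP98-JARID1A lines, against 9.03, 9.07, 10.00 and 9.56 in untreated RH-RAS lines (−2.69 ± 0.30, limma adjusted p = 0.000310 over probe sets), and another was at −2.82 ± 0.32 (0.000307). The dimmest of those tested was at −0.33 ± 0.12 and was not called (0.0538). Both SGC0946 arrays had 9.33 and 9.17 by the first of these, within the range of the untreated lines. Which part of Kdm5a each probe set reads, and whether it also reads the fusion transcript, the sources used here do not say. Kdm6b was not called by its brightest probe set (−0.37 ± 0.20, 0.156). Its second probe set had 7.41, 7.07 and 6.99 in NUP98-JARID1A lines, against 10.54, 10.73, 10.67 and 9.63 in untreated RH-RAS lines, a difference of −3.23 ± 0.27 (8.72e-05). Bmi1 was lower by both of its probe sets, at −1.15 ± 0.11 and −1.72 ± 0.08.

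Further genes that the brightest probe set left uncalled were called by others. Setdb1, an H3K9 writer, was at −1.87 ± 0.21 by a dimmer probe set and at −0.12 by the one used. Kmt2c was at −1.24 ± 0.19, against 0.25, Ezh1 at −0.83 ± 0.12, against 0.30, and Setd7 at 0.60 ± 0.11, against −0.15. Kmt2e was at 0.94 ± 0.25 and 1.36 ± 0.14 by 2 dimmer probe sets, against −0.41. Suz12 probe sets were spread from −0.82 to 0.42. Jarid2 was called by its brightest probe set alone, and another was at −0.10 ± 0.17 (0.634), although the same probe set fell by 1.39 under SGC0946.

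**Figure D5:**
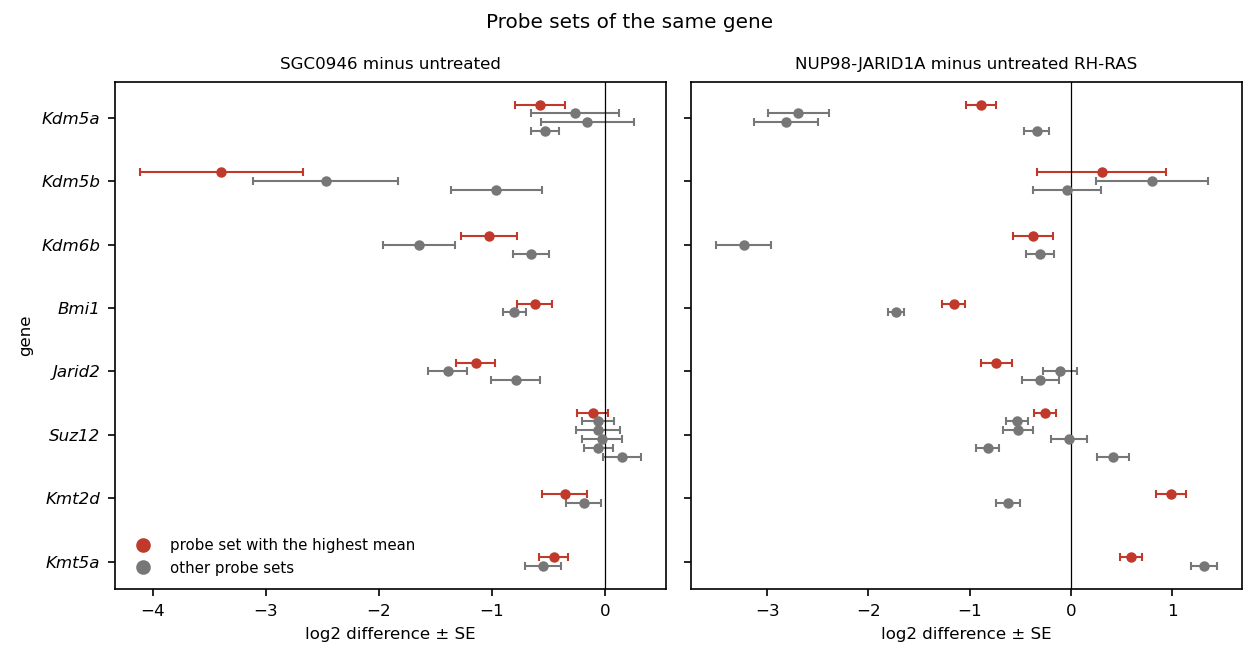
Log2 difference ± SE for every tested probe set of 8 genes, under SGC0946 (left; n = 2 and 2) and in NUP98-JARID1A lines (right; n = 3 and 4), both against untreated RH-RAS lines, with the probe set of the highest mean in red. Probe sets of Kdm5a and Kdm6b lie far apart on the right, those of Kmt2d lie on both sides of zero there, and the probe sets of Kdm5b, Kdm6b, Bmi1 and Jarid2 all lie below zero on the left.

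Of the 58 further histone methylation and Polycomb genes, 13 were higher and 12 lower in NUP98-JARID1A lines (43.1%, against 51% of all genes tested). Asxl2, of the Polycomb deubiquitinase complex, had 8.68, 8.02 and 8.68, against 9.45, 9.92, 9.88 and 9.97 (−1.35 ± 0.20, limma adjusted p = 0.00130). Kmt2a was higher, with 9.65, 10.22 and 9.86, against 8.53, 8.37, 8.99 and 8.48 (1.32 ± 0.19, 0.00102). The chromodomain gene Cbx2 was lower (−0.91 ± 0.29, 0.0315) and Phc3 higher by 0.86 ± 0.10 (0.000408). Dot1l was not called (−0.05 ± 0.11, 0.748).

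The last comparison sets the single MLL-AF9 array against the 4 untreated RH-RAS arrays, without a test. A gene was counted where its log2 intensity was 1 or more away from the mean of the RH-RAS arrays and outside their range, which 13% of all genes met (7.21% higher and 5.78% lower). Of the 39 genes 2 did so, both lower. Kdm3a had 9.81 in the MLL-AF9 line, against 10.46 to 11.51 in untreated RH-RAS lines, 1.41 below their mean or 2.65-fold lower. Bmi1 had 10.68, against 11.59 to 11.78, and was 2.04-fold lower (−1.03). Without RH-RAS line 3 it was just short of the rule (−0.999), and Kdm2a met the rule there by its brightest probe set. Without line 4 both Kdm3a and Bmi1 still met the rule.

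By the probe sets used, the remaining 37 genes lay within 1 of the RH-RAS mean. Dimmer probe sets of Kdm6b (−1.12), Setdb1 (−1.22) and Rnf2 (−1.24) lay further below it and outside the RH-RAS range. The rule was not counted over all probe sets. The furthest above was Kdm2a, with 9.73 in the MLL-AF9 line against 8.67 to 9.18 (0.90). The other tested Kdm2a probe sets were at −0.08, −0.67 and −0.57. Ring1, with 8.81 against 7.80 to 8.16 (0.87), and Kmt5a (0.70) came next. The furthest below were Kdm5a, with 9.46 against 10.00 to 10.64 (−0.88), Kmt2c (−0.83) and Kdm4b (−0.81). Ezh2 was at −0.21, Ezh1 at 0.14, Eed at −0.03, Suz12 at 0.33, Setd2 at −0.26, Wdr5 at −0.02, Kdm1a at −0.19 and Kdm5b at −0.21. A second probe set was at −0.88 for Wdr5, −0.63 for Kdm1a, −0.57 for Ezh1 and 0.32 for Kdm5b. Of the 58 further genes 2 were higher and 6 lower by the same rule (13.8%, against 13% of all genes tested). Dot1l and Kmt2a, at 0.34 and 0.58, were not among them. By the same rule all 7 late neutrophil markers were higher on this array (mean 10.77), 3 of 7 monocyte and macrophage markers were higher and 2 lower (mean 8.28), 4 of 6 T and NK cell markers were lower (mean 5.21), and of 7 stem and progenitor markers Kit was higher (1.01) and Flt3 (−2.27) and Cd34 (−1.49) were lower. None of 11 proliferation markers met the rule. Their part in these differences was not tested.

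All comparisons use untreated RH-RAS lines as the control and so share arrays. The SGC0946 values are against untreated lines 1 and 3, and the others against all 4 untreated lines. Without line 4, Kdm3a was at −1.79 in NUP98-JARID1A lines and −1.65 in the MLL-AF9 line. Set side by side, Kdm3a differed by −1.61 under SGC0946, −1.54 in NUP98-JARID1A lines and −1.41 in the MLL-AF9 line, and Bmi1 by −0.62, −1.15 and −1.03. Jarid2 differed by −1.14, −0.74 and 0.17. Kdm5b, at −3.39, 0.31 and −0.21, had its 2 lowest values of all 10 arrays under SGC0946. Nsd1 stood at −0.64, 0.42 and 0.16, and Kmt5a at −0.45, 0.59 and 0.70. Under SGC0946 neither of these genes was called (limma adjusted p = 0.0512 for Nsd1 and 0.0567 for Kmt5a). The Nsd1 call in NUP98-JARID1A lines was lost without some single arrays, and a second Nsd1 probe set was at −0.06 there.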

How the data were processed

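Total RNA of 10 mouse samples was hybridised to Affymetrix arrays, 1 array per sample. What the authors deposited is a log2 intensity for each probe set, from RMA, per the submitters' processing notes (its version is not given in the sources used here). RMA leaves no detection call and narrows differences at low intensity, so folds that end near the array median are understated. No further normalization was applied. Of 45101 probe sets, 34958 had 1 gene symbol in the array annotation, 932 had several and 9211 were not listed. Of 18194 genes, each with its brightest probe set by mean, 11993 exceeded the median of the array on 2 arrays or more and were tested.

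Models were fitted in limma 3.58.1 under R 4.3.3 (lmFit, eBayes), with Benjamini-Hochberg adjustment over all genes tested and a threshold of 0.05; they were tested on simulated data. SGC0946 was taken as treated minus untreated lines 1 and 3 in a fit of all 10 arrays, so the spread among NUP98-JARID1A lines and between untreated lines 2 and 4 enters its SE. NUP98-JARID1A and RH-RAS lines were compared over the 8 arrays without inhibitor. MLL-AF9, with 1 array, was not tested. The labels call only the RH-RAS lines independently derived, so p-values measure the spread between these samples, which may be technical. Treated and untreated arrays of lines 1 and 3 come from the same line and are paired. The correlation of deviations was 0.292, a single value, since with 2 arrays per group the deviations of the lines mirror each other. The fit with the line as a block is given where it changed a call. Probe sets were also fitted one by one, with p-values adjusted over all 21691 probe sets tested.

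The 40 genes, the further list and the markers were chosen with earlier results of these data known. The text names every gene of the 40 past a threshold, 10 fixed genes (Kdm5a, Kdm5b, Ezh2, Ezh1, Eed, Suz12, Bmi1, Setd2, Wdr5 and Kdm1a), tested probe sets that differ from the one used in sign or by at least 1, and, of the further list, up to 4 genes with the largest change among those past the threshold in each tested comparison, with Dot1l and Kmt2a. Other genes named, and the promoters shown, were picked after their values were seen. Alternatives were median subtraction, the mean of all probe sets of a gene, other filters, an intensity trend, blocks, other sets of arrays and leaving out each array. Promoter sequences are from RefSeq, GRCm38.p6; the expression values come with no named build.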

Additional observations from a re-analysis of the deposited data

Results flagged for a closer look

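In 39 groups of 4 untreated RH-RAS lines, 1 array lay far from the other 3 for 4 genes, where chance gives about 1 in 20 groups. Kdm3a had 10.46 in line 4, against 11.43 to 11.51 in lines 1 to 3. Setd2 had 9.83 in line 3, against 9.65 to 9.68 in the others. Ehmt1 had 10.72 in line 3, against 10.55 to 10.57. Ezh1 had 7.94 in line 2, against 8.21 to 8.25.

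For 5 genes the 2 lines moved in opposite directions under SGC0946, a difference that was not tested. The log2 changes in lines 1 and 3 were 0.026 and −0.41 for Kdm2a, 0.11 and −0.28 for Kdm4a, −0.083 and 0.032 for Ash2l, −0.011 and 0.10 for Dpy30, and −0.00094 and 0.08 for Eed. None of the 5 passed in limma.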

How the results depend on the processing

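Of the values recomputed for single genes, 223 for SGC0946 and 289 for NUP98-JARID1A kept their direction and their side of the threshold, and 42 and 47 became weaker. For MLL-AF9, which was not tested, 94 values were classed as the same and 5 as moved. The MLL-AF9 difference changed sign in some settings for Eed (up to 0.15), Ezh1 (down to −0.21), Kdm5b (up to 0.04) and Wdr5 (up to 0.02). Under SGC0946, with the line as a replicate block 6 of the 39 genes and 844 of all genes were called. In a fit of the 4 arrays of lines 1 and 3 alone these counts were 18 and 3746. Leaving out single arrays gave 0 to 9 of the 39 genes and 28 to 1855 of all genes. The fall to 0 or 1 came when an array of lines 1 or 3 was left out, which leaves 1 array on that side, assumed to vary like the other groups. With all 4 untreated lines as the control (chosen after seeing the data) 10 genes were called, with Ehmt2, Ezh2, Kdm4c and Nsd1 gained and Kdm4b and Kmt2e lost. By the mean of all probe sets 7 genes were called, with Kmt2e (−0.35) and Setd7 (−0.31) lost and Kmt5a gained. Eed changed sign to −0.088 by that mean and, over single arrays left out, ranged from −0.0072 without treated line 3 up to 0.087. For NUP98-JARID1A, leaving out single arrays gave 14 to 20 of the 39 genes and 5121 to 5899 of all genes. By the mean of all probe sets 18 genes were called, 13 of them among the 21, with 8 lost and 5 gained, and Eed (0.29), Kdm2a (−0.25), Kdm3b (0.11), Nsd1 (−0.25) and Setd1a (−0.27) changed sign. For Eed and Setd1a the other probe set in the mean lay below the array median on all 10 arrays. Tested one by one (chosen after seeing the data), 11313 probe sets were called. NUP98-JARID1A and RH-RAS lines share only numbers (correlations of deviations −0.05, −0.02 and 0.07); a replicate block there gave 16 genes and a Kdm5b value of −0.18. Kdm5b also changed sign without RH-RAS line 4 (−0.18) and without NUP98-JARID1A line 2 (−0.30), and reached 0.72 without NUP98-JARID1A line 3. For MLL-AF9, a limit of 2 on the log2 scale left 0 of the 39 genes and 522 of all genes, and leaving out single RH-RAS arrays gave 2 each time and 1546 to 1634 of all genes. The causes were not tested. The deposited values carry no detection call, so signal over background was not assessed.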
